A study of Mus musculus with 8 samples.

Results

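The transcription factor gene Trp53 and 9 genes known as targets of its protein, p53, were followed through 8 bulk RNA-seq libraries of mouse neural stem cells. The 10 genes were taken by name and matched through Ensembl identifiers, and all 10 were among the 15538 genes measured. They were arranged by role: Trp53 itself, the arrest targets Cdkn1a and Zmat3, the feedback targets Mdm2 and Ccng1, the stress targets Sesn2 and Gdf15, and the death targets Bax, Bbc3 and Phlda3. The cells were primary embryonic brain neurospheres, floating clusters of cultured stem cells, in 2 groups of 4 libraries: wild type (Phf23+/+) and homozygous for loss of Phf23 (Phf23-/-), which encodes a PHD-finger chromatin protein. The study asked how loss of Phf23 blocks differentiation of these cells. The sources used here do not give embryonic age, mouse strain, the way the allele was made or whether cultures were pooled. Whether replicates are separate cultures or animals is not said either, and the p-values therefore reflect spread among these 8 libraries, possibly technical.

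The p53 protein is a DNA-binding factor that is held low by the ubiquitin ligase MDM2 and accumulates after DNA damage, ribosomal stress or oncogene activity. It then raises the transcription of genes that stop the cell cycle, repair or relieve stress, or start cell death, and also of Mdm2, which closes a negative feedback loop. Its control lies largely in protein stability and modification, which an mRNA measurement does not see. In the developing brain, excess p53 activity is known to deplete neural progenitors.

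Depth, recovered from the deposited values as whole reads, ran from 15647304 to 19462516 reads per library, and the members averaged from 777 to 11899 normalised reads. Replicate libraries differed beyond sampling noise (chi-square per degree of freedom 5.99 to 78.4). A normalised read is a read divided by the size factor of its library. Phf23 itself went against its label. Its mean was 798 ± 85.4 normalised reads for wild type but 1481 ± 108 for the knockout-labelled libraries (SD, n = 4 each, limma-trend FDR = 0.000581), so that all directions given are those of the labels. A total over exons cannot check a partial deletion. Transcript length also moved with the label, with short transcripts higher and long ones lower in the libraries labelled knockout, and the fold change of each member is set beside that of genes of like length. All 9 neural stem cell markers were measured (summed level 134707 to 145432 in wild type, 155669 to 199145 with the knockout label), and 4 were called higher. Of the markers of other cells, all 5 oligodendrocyte markers were measured and 4 called higher (sums 298 to 412 and 638 to 797). All 4 astrocyte markers were measured, 2 called higher and 2 lower (3059 to 3732 and 2268 to 2532), and 3 of 5 neuron markers, 1 called higher (376 to 588 and 422 to 471). Microglia, endothelial, fibroblast and erythroid markers were near 0, with 1 of 7, 2 of 5, 2 of 5 and 1 of 5 measured, 0 called and sums of at most 57.6. Over all genes 14.8% were called higher and 14.8% lower. The part of these cell type differences in the p53 results was not tested. In bulk RNA fewer cells of a type and less RNA per cell cannot be told apart.

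The p53 protein binds DNA through the p53 decamer, usually as a pair of decamers. The letters of this motif were searched in RefSeq promoter windows of 300 bases, from 250 before to 50 after a transcription start (build GRCm38.p6), which were held for 9 of the 10 members; for Zmat3 there was no entry. The windows of 5 members carried at least 1 exact decamer, and those of Cdkn1a and Ccng1 carried a pair, defined as neighbouring decamers with at most 1 mismatch each and at most 13 bases between them. Counted by window, 5 of the 13 windows of members carried an exact decamer and 2 a pair. Among all 32851 windows of that length, 8.36% carried an exact decamer and 2.71% a pair. The decamer consensus reads the same on both strands. The stretches around these matches are shown because p53 is known to act through such letters, with binding not measured here, 5′ to 3′ on the strand of the gene, with matches in capitals:
Trp53, chr11:69580264-69580313, plus strand: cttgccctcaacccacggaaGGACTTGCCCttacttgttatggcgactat
Cdkn1a, chr17:29090886-29090967, plus strand: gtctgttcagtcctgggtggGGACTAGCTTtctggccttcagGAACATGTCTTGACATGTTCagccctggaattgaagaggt
Mdm2, chr10:117710915-117710964, minus strand: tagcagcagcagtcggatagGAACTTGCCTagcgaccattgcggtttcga
Ccng1, chr11:40755442-40755501, minus strand: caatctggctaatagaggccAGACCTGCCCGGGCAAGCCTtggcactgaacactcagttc
Bax, chr7:45467070-45467119, minus strand: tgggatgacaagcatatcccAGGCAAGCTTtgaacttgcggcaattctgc

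The Trp53 match began 75 bases before its start. In the upstream window of Cdkn1a the matches began 73, 51 and 41 bases before the start, the last with 1 mismatch. Those of Ccng1 began 195 and 185 bases before the start and adjoin each other, the first with 1 mismatch. The matches of Mdm2 and Bax began 186 and 201 bases before their starts. Windows of Sesn2, Gdf15, Bbc3 and Phlda3, and the downstream window of Cdkn1a, held no match to these letters. The motif TGATGNAA, bound by the stress factor ATF4, was searched on both strands in the same way and was in 3.97% of all windows and in 0 of the 13 windows of members. A match is a description of the letters and not a measured binding site.

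Of the 10 genes, 5 rose and 1 fell in the libraries labelled knockout. Cdkn1a, Sesn2, Bax, Bbc3 and Phlda3 were called higher and Zmat3 lower by limma-trend at a false discovery rate (FDR) under 0.05, and Trp53, Mdm2, Ccng1 and Gdf15 were not called. Over all genes the same test called 29.6%, with 14.8% higher and 14.8% lower. The median log2 fold change of the 10 was 0.44, beside 0.00 over all 15538 genes. The 2 groups of libraries did not overlap for 6 of the 10 (Trp53, Cdkn1a, Sesn2, Bax and Phlda3 higher, Zmat3 lower), against 27.7% of all genes.

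**Figure D1:**
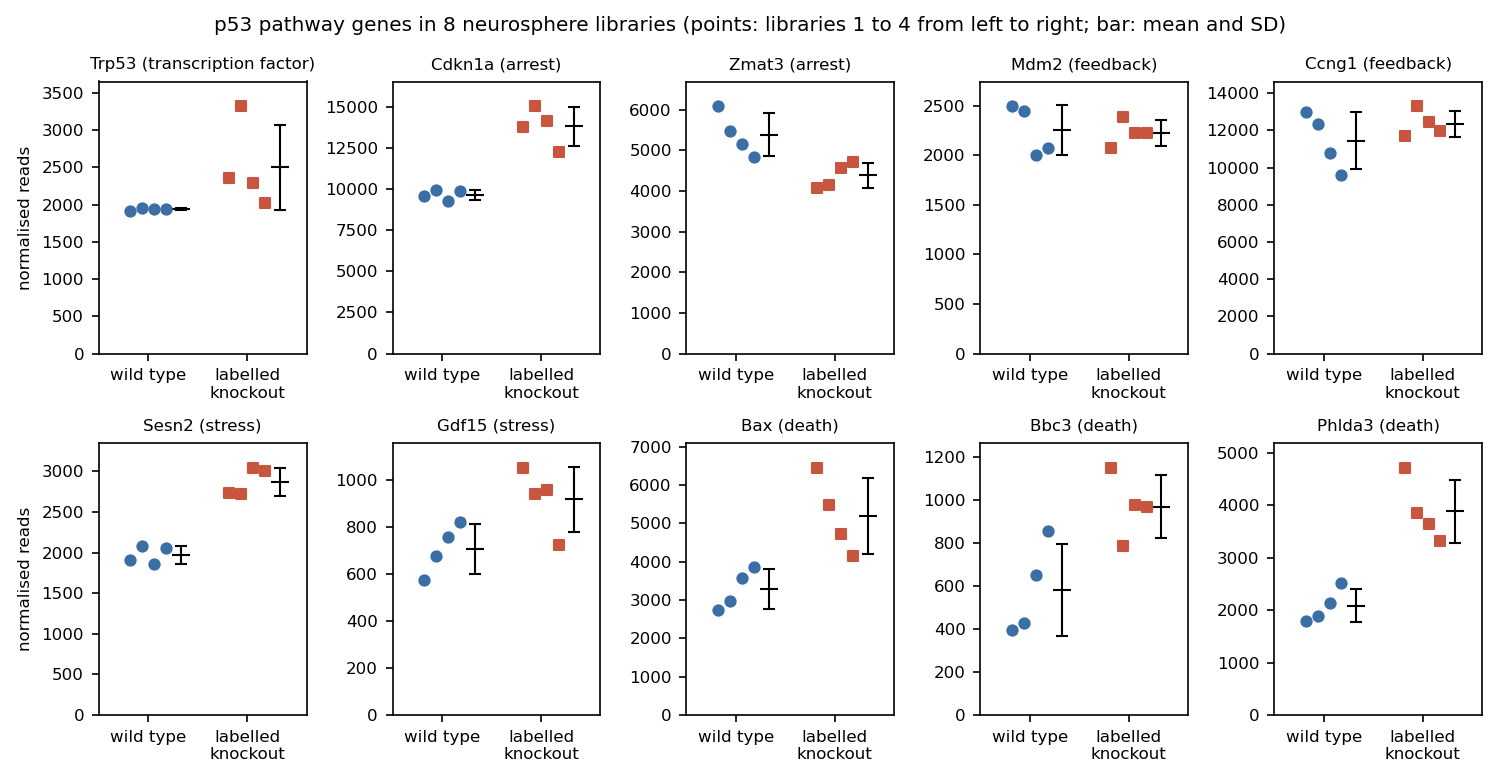
Normalised reads of each of the 10 genes (y axis, from 0) in wild-type libraries 1 to 4 (blue circles) and libraries 1 to 4 labelled knockout (red squares), with mean and SD. Sesn2 and Cdkn1a have all knockout-labelled points above all wild-type points, while those of Mdm2 and Ccng1 mix with them.

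Trp53 (ENSMUSG00000059552, chromosome 11, 69580359 to 69591873, plus strand, mm10) was nearly constant in wild type, with 1919, 1958, 1939 and 1939 normalised reads in libraries 1 to 4. Knockout-labelled 1 to 4 had 2361, 3321, 2296 and 2016. Every knockout-labelled library was above every wild-type one, but knockout-labelled 2 stood far above the other 3 and knockout-labelled 4 was only just above wild type. The means were 1939 ± 16.1 for wild type and 2499 ± 568 for the knockout label (SD, n = 4 each), and the coefficient of variation was 0.831% and 22.7%. The log2 fold change was 0.34 ± 0.133 (SE, 95% interval 0.05 to 0.63, limma-trend FDR = 0.0705), so Trp53 mRNA was not called. It was called without knockout-labelled 4 (log2 0.44, FDR = 0.0147) and by DESeq2 (log2 0.36, FDR = 0.0446), and stood at 0.20 (FDR = 0.138) without knockout-labelled 2. A processed Trp53 pseudogene, Trp53-ps, is annotated on chromosome 17, and the sources used here do not say how reads shared with it were counted.

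Among the arrest targets, Cdkn1a rose and Zmat3 fell. Cdkn1a (ENSMUSG00000023067, chromosome 17, 29090976 to 29100727, plus strand) encodes p21, the cyclin-dependent kinase inhibitor through which p53 halts the cell cycle. Wild-type libraries 1 to 4 gave 9569.5, 9941, 9274 and 9863 normalised reads. Knockout-labelled 1 to 4 gave 13789, 15026, 14149 and 12222. The lowest of these, knockout-labelled 4, lay above the highest wild-type library. The mean went from 9662 ± 304 to 13797 ± 1171 (SD, n = 4 each), a 1.43-fold difference. On the log2 scale this was 0.51 ± 0.0964 (SE, 95% interval 0.30 to 0.72, limma-trend FDR = 0.00560), and the call held when any 1 library was left out. A gene annotated on the opposite strand, AC167363.2, shares 273 exonic bases with Cdkn1a.

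Zmat3 (ENSMUSG00000027663, chromosome 3, 32334792 to 32366014, minus strand), also called Wig1 or PAG608, encodes an RNA-binding zinc finger protein. Wild type 1 to 4 had 6082, 5482, 5152 and 4826 normalised reads, against 4079, 4151, 4566 and 4722 in knockout-labelled 1 to 4. The groups did not overlap, yet wild type 4 and knockout-labelled 4 lay close together. Zmat3 fell 1.23-fold, from 5386 ± 536 to 4379 ± 313 (SD, n = 4 each), a log2 fold change of -0.30 ± 0.102 (SE, 95% interval -0.52 to -0.08, limma-trend FDR = 0.0444). The call was lost without any 1 of wild type 1, 2 or 3 or knockout-labelled 1, 2 or 3 (FDR = 0.0707 to 0.140), and the direction turned once a trend with length and GC content was subtracted (log2 0.13, FDR = 0.204).

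Neither feedback target was called. Mdm2 (ENSMUSG00000020184, chromosome 10, 117688875 to 117710758, minus strand), the ligase gene that closes the p53 loop, gave 2494, 2446, 2003 and 2076 normalised reads across wild-type libraries 1 to 4. In knockout-labelled 1 to 4 the values were 2069, 2385, 2223 and 2228. All knockout-labelled values fell inside the range of wild type, where libraries 1 and 2 were higher than 3 and 4. With means of 2255 ± 251 for wild type and 2226 ± 129 for the knockout label (SD, n = 4 each), the log2 fold change was -0.01 ± 0.103 (SE, 95% interval -0.24 to 0.21, limma-trend FDR = 0.937). The interval allows a change of up to 0.21 upward or 0.24 downward on this scale.

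Ccng1 (ENSMUSG00000020326, chromosome 11, 40748552 to 40755311, minus strand) encodes cyclin G1, which recruits a phosphatase that acts on MDM2. Its wild-type libraries 1 to 4 held 12999.8, 12346, 10805 and 9621 normalised reads. Those labelled knockout held 11710.0, 13295, 12444 and 11967, inside or just above the wild-type range. Means were 11443 ± 1524 for wild type and 12354 ± 697 for the knockout label (SD, n = 4 each), with a log2 fold change of 0.12 ± 0.112 (SE, 95% interval -0.12 to 0.36, limma-trend FDR = 0.449). Subtracting the trend with length and GC content brought a call (log2 0.26, FDR = 0.0154), with no overlap between the groups.

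Sesn2 was the stress target that rose. Sesn2 (ENSMUSG00000028893, chromosome 4, 132492032 to 132510501, minus strand) encodes sestrin 2, a leucine sensor that restrains mTORC1, and is also a known target of ATF4. Normalised reads were 1908, 2076, 1856 and 2058 for wild-type libraries 1 to 4, and for knockout-labelled 1 to 4 they were 2733, 2722, 3046 and 3002. The groups stood well apart, with little spread within either. Sesn2 rose 1.46-fold, from 1975 ± 109 to 2876 ± 172 normalised reads (SD, n = 4 each), with a log2 fold change of 0.54 ± 0.0908 (SE, 95% interval 0.35 to 0.74, limma-trend FDR = 0.00341). It was called higher in all 21 alternative settings, at log2 fold changes from 0.38 to 0.65.

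Gdf15 (ENSMUSG00000038508, chromosome 8, 70629393 to 70632456, minus strand) encodes a secreted stress cytokine of the TGF-beta superfamily, which ATF4 also induces. Its normalised reads were 575, 679, 759 and 821 across wild-type libraries 1 to 4, and 1053, 940.3, 957 and 723 across knockout-labelled 1 to 4. Knockout-labelled 4 lay inside the wild-type range and the other 3 lay above it. From means of 708 ± 106 for wild type and 918 ± 139 for the knockout label (SD, n = 4 each), the log2 fold change was 0.37 ± 0.141 (SE, 95% interval 0.07 to 0.68, limma-trend FDR = 0.0629), which is no call. It was called without knockout-labelled 4 (log2 0.48, FDR = 0.0102), without wild type 4 (log2 0.45, FDR = 0.0405) and by DESeq2 (log2 0.37, FDR = 0.0450), and turned downward with the trend subtracted (log2 -0.20, FDR = 0.144).

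All 3 death targets were called higher, where 14.8% of all genes were. Their transcripts are short. Bax and Phlda3 are among genes of up to 1473 nt, of which 50.4% were called higher. Bbc3 is among those of 1473 to 2030 nt, of which 34.5% were. With the trend with length and GC content subtracted, 0 of the 3 were called. When that trend was fitted by a loess of degree 1 in place of 2, Phlda3 was called (log2 0.27, FDR = 0.0464). Bax (ENSMUSG00000003873, chromosome 7, 45461697 to 45466898, minus strand) encodes the BCL-2 family protein that permeabilises the outer mitochondrial membrane. Wild-type libraries 1 to 4 contained 2747, 2986, 3574 and 3857 of its normalised reads, compared with 6452, 5470.3, 4713 and 4157 in knockout-labelled 1 to 4. The groups did not overlap, with wild type 4 and knockout-labelled 4 nearest to each other. The rise was 1.58-fold, from 3291 ± 513 to 5198 ± 994 (SD, n = 4 each), at a log2 fold change of 0.65 ± 0.147 (SE, 95% interval 0.34 to 0.97, limma-trend FDR = 0.00962). Bax has a transcript of only 1100 nt, and with the trend subtracted its direction turned (log2 -0.17, FDR = 0.256). A same-strand gene model, Gm45808, shares 192 exonic bases with Bax.

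Bbc3 (ENSMUSG00000002083, chromosome 7, 16308393 to 16318205, plus strand) encodes PUMA, a BH3-only activator of mitochondrial cell death. Wild type 1 to 4 held 398, 426, 650.3 and 857 normalised reads and varied widely, with libraries 3 and 4 well above 1 and 2. The knockout-labelled libraries held 1151, 789, 976 and 967, and the groups overlapped, since knockout-labelled 2 was below wild type 4. Bbc3 rose 1.67-fold, from 583 ± 215 to 971 ± 148 (SD, n = 4 each), a log2 fold change of 0.79 ± 0.215 (SE, 95% interval 0.33 to 1.26, limma-trend FDR = 0.0177). The call was lost when wild type 1 was left out (log2 0.63, FDR = 0.0566), as it was on leaving out knockout-labelled 1 (log2 0.71, FDR = 0.0655) or wild type 2 (log2 0.67, FDR = 0.0625).

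Phlda3 (ENSMUSG00000041801, chromosome 1, 135766119 to 135769136, plus strand) encodes a pleckstrin-homology protein that competes with AKT for membrane lipids. Across wild-type libraries 1 to 4 its normalised reads were 1802, 1891, 2129.8 and 2522, and across knockout-labelled 1 to 4 they were 4715, 3859, 3647 and 3317. All knockout-labelled libraries were higher, the first most of all. The means were 2086 ± 322 for wild type and 3885 ± 597 for the knockout label (SD, n = 4 each), a 1.86-fold rise and the largest among the 10 genes by this ratio, and the log2 fold change was 0.90 ± 0.132 (SE, 95% interval 0.61 to 1.18, limma-trend FDR = 0.00195). The call held when any 1 library was left out.

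The length of the transcript went with the direction of these changes. In each library a slope was taken of a gene's log2 level, relative to its mean over the libraries, against the log2 of its longest transcript. The slopes of wild-type libraries 1 to 4 were 0.26, 0.20, 0.08 and 0.06, and those of knockout-labelled 1 to 4 were -0.24, -0.31, -0.09 and 0.04. The 13265 genes averaging at least 10 normalised reads were put into 10 bins of equal size by transcript length. In the shortest bin, which holds Bax and Phlda3, the median log2 fold change was 0.52 and 50.4% were called higher. For the next bin, with Gdf15 and Bbc3, these were 0.32 and 34.5%. In the longest bin, that of Zmat3, the median was -0.49 and 57.4% were called lower. In the fifth bin, which holds Trp53, Mdm2 and Sesn2, it was 0.04. Against the medians of their own bins, 9 of the 10 members lay higher and Mdm2 lower, with a difference of -0.06. Sesn2 stood 0.50 above that median, Bbc3 0.48, Phlda3 0.38, Cdkn1a 0.33, Trp53 0.30, Zmat3 0.20, Ccng1 0.16, Bax 0.14 and Gdf15 0.06. Over the 10 genes, log2 fold change and transcript length had a Spearman correlation of -0.73, and over 13265 genes of -0.60, given as descriptions of genes that share the same 8 libraries.

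**Figure D2:**
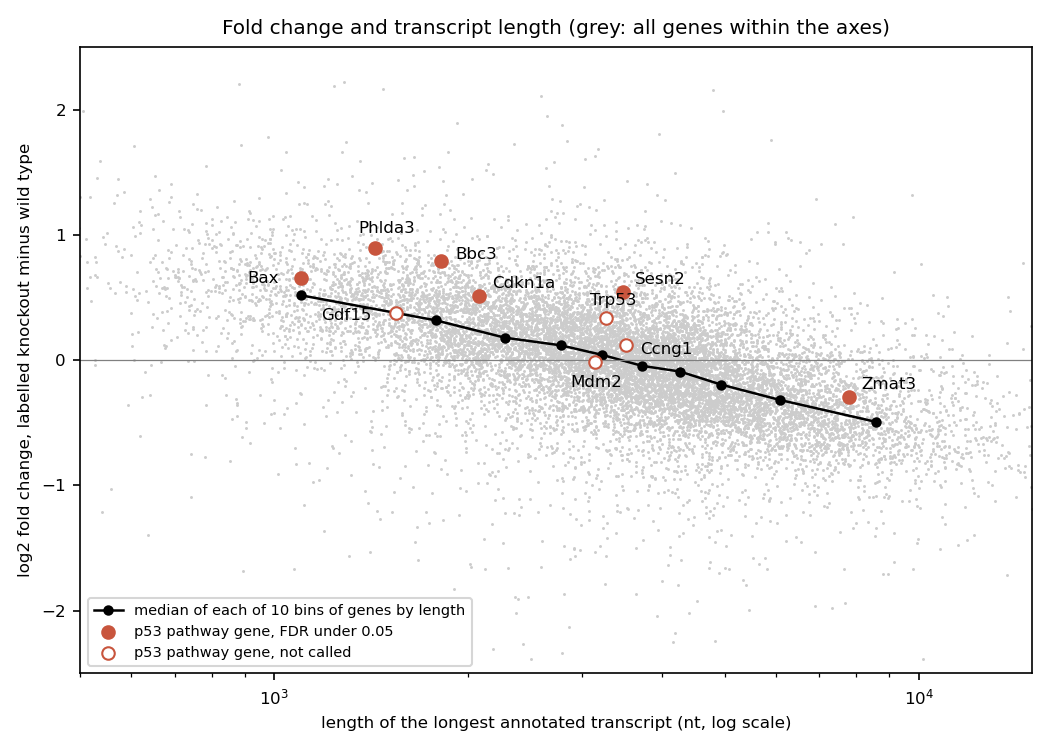
Log2 fold change (y axis, labelled knockout minus wild type) of the members against the length of the longest transcript (x axis, log scale, nt), with the median of each of 10 bins of genes by length. Sesn2, Bbc3 and Phlda3 lie furthest above the line of medians, and Mdm2 lies just under it.

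**Figure D3:**
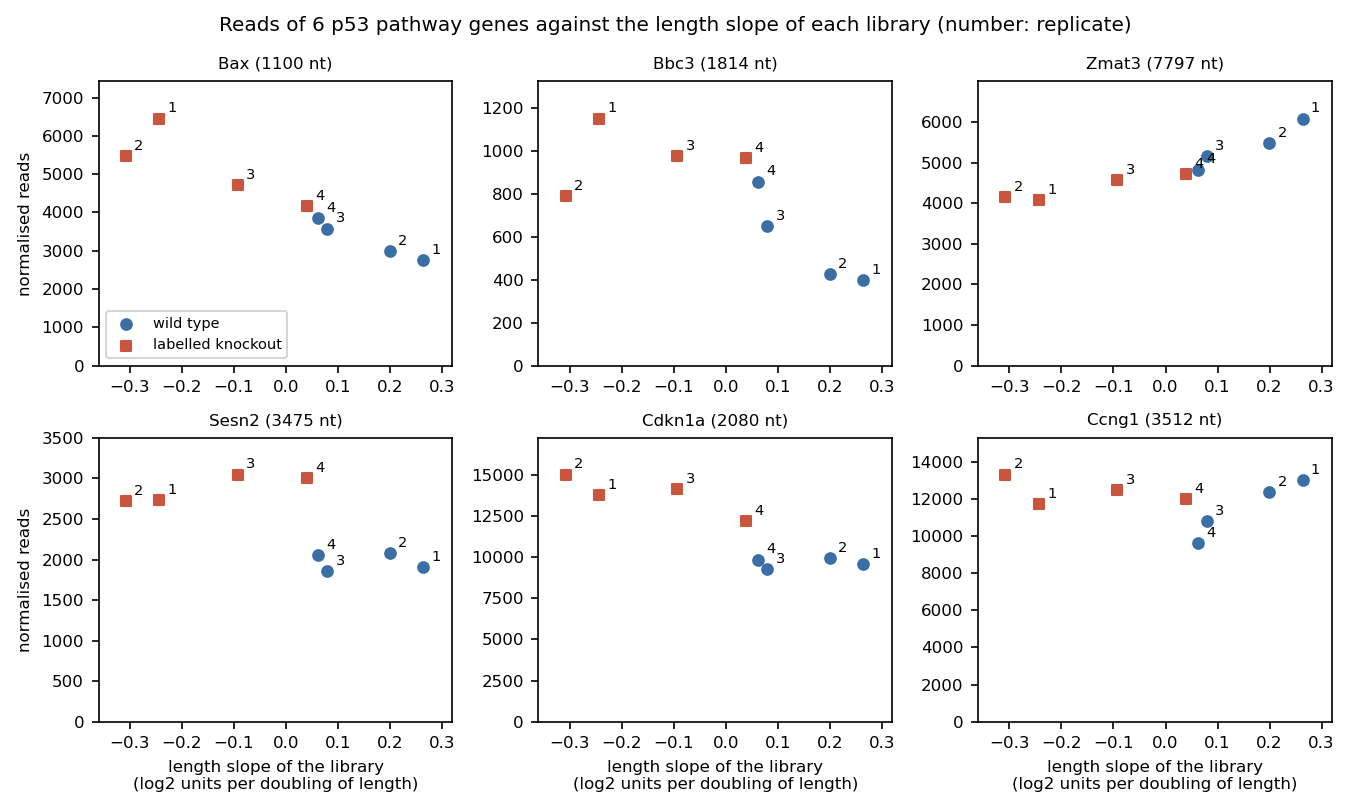
Normalised reads of 6 members (y axis, from 0) in each library against the length slope of that library (x axis, log2 units per doubling of length), for wild type (blue) and the libraries labelled knockout (red). Libraries with the lowest slopes, knockout-labelled 1 and 2, hold the most Bax, while Sesn2 in knockout-labelled 4 lies far above wild type 4 at nearly the same slope.

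Settings that take this length relation into account left different numbers of members called. With a loess trend on length and GC content subtracted from each library, Sesn2 (log2 0.38, FDR = 0.00607) and Ccng1 were higher, 2 of 10, against 18.2% of all genes called in either direction. Cdkn1a then stood at 0.22 (FDR = 0.0509), Phlda3 at 0.25 (FDR = 0.0717), Bbc3 at 0.14 (FDR = 0.420) and Trp53 at 0.26 (FDR = 0.172), with a median of 0.18 over the 10. After subtraction the groups did not overlap for Cdkn1a, Sesn2 and Ccng1, of which Ccng1 had overlapped before it. The share of all genes without overlap after subtraction was not counted, so this has no background beside it. For Cdkn1a the nearest libraries, wild type 1 and knockout-labelled 1, were then at 0.019 and 0.029 relative to the mean on the log2 scale. A loess of degree 1 in place of 2, added after seeing the data, also called Cdkn1a (log2 0.23, FDR = 0.0487) and Phlda3 (log2 0.27, FDR = 0.0464) higher. Without the 4 libraries of steepest slope, leaving wild type 3 and 4 against knockout-labelled 3 and 4, the calls were Cdkn1a (log2 0.46, FDR = 0.000812), Sesn2 (log2 0.63, FDR = 7.39e-07), Bbc3 (log2 0.38, FDR = 0.0268) and Phlda3 (log2 0.59, FDR = 4.71e-06), 4 of 10 against 9.15% of all genes. Bax was at 0.25 (FDR = 0.12) and Zmat3 at -0.10 (FDR = 0.628) there. With so few libraries, the variance used for the members in that fit came wholly from the pool over genes. These FDRs therefore do not reflect a member's own spread between replicates. With the slope as a covariate, Sesn2 alone among the 10 was called (log2 0.65, FDR = 0.00913), against 1.09% of all genes. The slopes of wild type (0.06 to 0.26) all lay above those with the knockout label (-0.31 to 0.04). This fit therefore separates label and slope poorly, and the SE of Bbc3 went from 0.215 to 0.401. A call lost there does not show that length accounts for the difference.

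**Figure D4:**
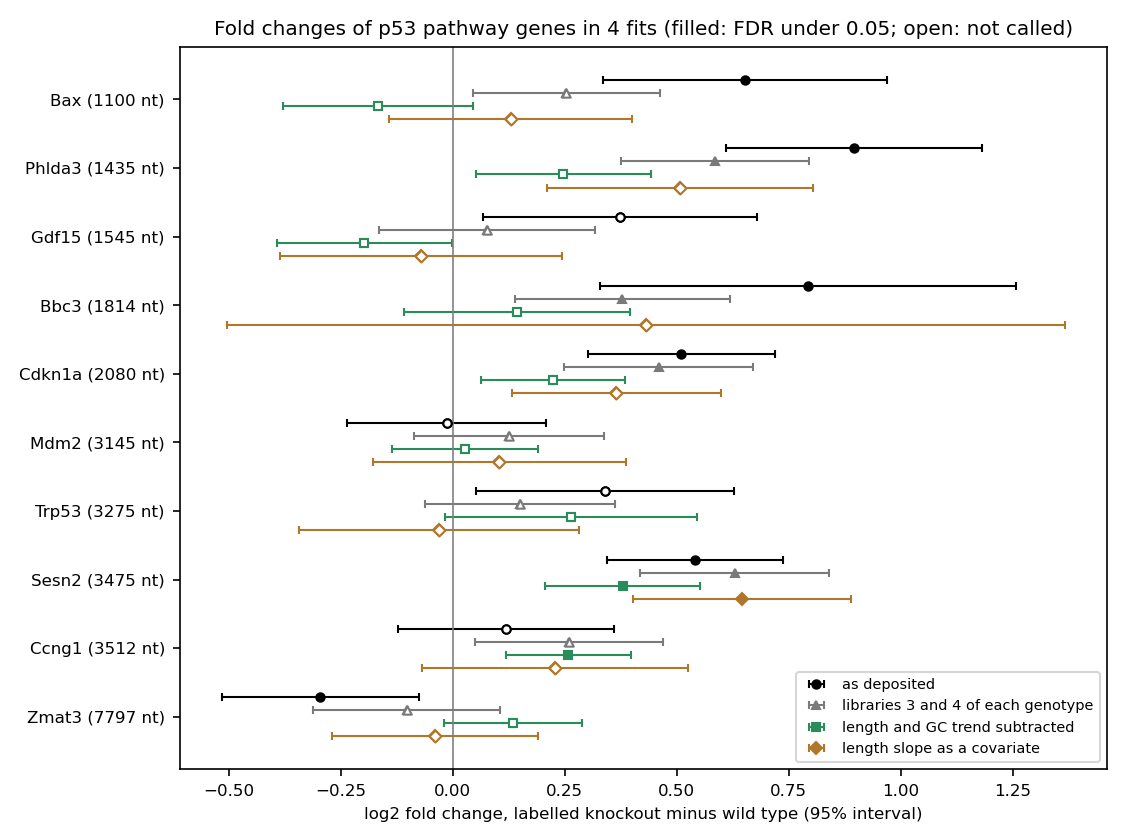
Log2 fold change of each member (x axis, labelled knockout minus wild type) in the model as reported and in the fits that take transcript length into account, filled where called at an FDR under 0.05. Sesn2 is called in each fit, while Bax, Zmat3, Gdf15 and Mdm2 cross 0 with the trend subtracted. Trp53, Gdf15 and Mdm2 cross it with the slope as a covariate.

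Levels between genes were compared per kilobase of the longest transcript. In wild type the order was Cdkn1a (4645 ± 146 normalised reads per kb, SD, n = 4 throughout), Ccng1 (3258 ± 434), Bax (2992 ± 466), Phlda3 (1454 ± 224), Mdm2 (717 ± 79.9), Zmat3 (691 ± 68.8), Trp53 (592 ± 4.92), Sesn2 (568 ± 31.4), Gdf15 (459 ± 68.7) and Bbc3 (321 ± 119). The libraries of Ccng1 and Bax overlapped, as did those of Mdm2 and Zmat3, Trp53 and Sesn2, and Gdf15 and Bbc3; the other neighbours did not. In the libraries labelled knockout Bax (4725 ± 904) stood above Ccng1 (3518 ± 199), with overlap, and Sesn2 (828 ± 49.5) stood above Trp53 (763 ± 174), Mdm2 (708 ± 41.1) and Zmat3 (562 ± 40.2), all higher than Sesn2 in wild type. Gdf15 (594 ± 90.3) stood between Mdm2 and Zmat3. Cdkn1a was first (6633 ± 563) and Phlda3 the fourth (2707 ± 416), each apart from its neighbours, and from Sesn2 down to Bbc3 (535 ± 81.6) each gene overlapped the next. By this measure the arrest gene Cdkn1a held the highest level per kb in both groups. Its first place in wild type depends on the length used. All exons of Cdkn1a together cover 3553 nt, and those of Ccng1 3512 nt. Ccng1 had more wild-type reads (11443 against 9662), so per kb of all exons it would stand above Cdkn1a. The levels per kb were not corrected for the length relation of the libraries.

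Among 10769 genes averaging 100 normalised reads or more, genes with a pattern most like that of Trp53 over the 8 libraries included Kdelr2 (Pearson r = 0.990) and Ntan1 (0.987). Kdelr2, a receptor that returns proteins to the endoplasmic reticulum, had 1905 ± 46.9 and 2448 ± 585 normalised reads in the 2 groups. Ntan1, which encodes an amidase of the N-degron pathway, had 591 ± 18.4 and 769 ± 186. For Cdkn1a the closest were Bace2 (0.992), Rab3b (0.991) and Ass1 (0.990). Bace2, a membrane protease gene, had 315 ± 20.6 and 606 ± 100.9, Rab3b, a vesicle GTPase gene, 4505 ± 227 and 7628 ± 1209.7, and Ass1, which makes argininosuccinate, 473 ± 27.2 and 1107 ± 168 (SD, n = 4 each). These correlations describe genes measured in the same 8 libraries.

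A wider set of 53 known p53 targets, 51 measured and none of them a member, was described by role. In all 14 of the 51 were called higher and 5 lower, where 14.8% of all genes were called higher and 14.8% lower. Their median transcript was 2727 nt, and in the length bin from 2544 to 3003 nt 18.9% were called higher and 4.22% lower. The median log2 fold change was 0.12, against 0.00 over all genes. The count of 14 became 5, 7, 8 and 9 without knockout-labelled 1, wild type 1, wild type 2 and knockout-labelled 2. The count of 5 became 2, 3 and 2 without knockout-labelled 1, wild type 1 and wild type 2. The length trend subtracted gave 9 higher and 3 lower with a median of 0.06, where 18.2% of all genes were called in either direction. The slope as a covariate gave 0 of either, where 1.09% of all genes were called.

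Of 9 other arrest targets 3 rose and 0 fell (median 0.18), beside 14.8% of all genes in each direction. Btg2, an antiproliferative coregulator, rose from 1019 ± 49.2 to 1484 ± 122 (log2 0.54, FDR = 0.00485). Rprm, a mediator of arrest before mitosis, rose from 1199 ± 215 to 1939 ± 200.1 (log2 0.71, FDR = 0.00553), and Plk3, a polo-like kinase gene, from 214 ± 19.5 to 279 ± 21.9 (log2 0.38, FDR = 0.0352). Gtse1, whose protein restrains p53, was at 1811 ± 63.5 and 2172 ± 304 (log2 0.25, FDR = 0.0957) and was not called. With the length trend subtracted Btg2 (log2 0.45) and Rprm (log2 0.26) were called.

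Of 7 other feedback and regulator targets 1 rose and 2 fell (median -0.10), beside 14.8% of all genes in each direction. Mdm4, the MDM2 relative that also restrains p53, fell from 3683 ± 712 to 2212 ± 563 (log2 -0.75, FDR = 0.0116). Trp53inp1, which promotes p53 activity, fell from 5642 ± 845 to 4144 ± 495 (log2 -0.44, FDR = 0.0213). Rps27l, a ribosomal protein paralogue that binds MDM2, rose from 3589 ± 513 to 5688 ± 1833 (log2 0.62, FDR = 0.0276). Cop1, a further ubiquitin ligase for p53, was at 1738 ± 147 and 1612 ± 54.6 (log2 -0.10, FDR = 0.426). With the trend subtracted 2 were called higher, Rps27l and Cop1 (log2 0.32 and log2 0.37), and 1 lower, Mdm4 (log2 -0.32).

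Of 13 other stress, repair and metabolism targets 3 rose and 1 fell (median -0.07), beside 14.8% of all genes in each direction. Ddit4, an inhibitor of mTORC1, rose from 1118 ± 390.1 to 1837 ± 165 (log2 0.77, FDR = 0.0134). Gpx1, which removes hydrogen peroxide, rose from 2172 ± 289 to 2988 ± 454 (log2 0.46, FDR = 0.0232), and Ei24, a membrane protein gene, from 3856 ± 277 to 4922 ± 489 (log2 0.35, FDR = 0.0231). Rrm2b, the p53-inducible subunit of ribonucleotide reductase, fell from 474 ± 67.5 to 329.9 ± 41.1 (log2 -0.52, FDR = 0.0162). With the trend subtracted none of these 4 was called, and Gpx1 turned to -0.13 (FDR = 0.338). Gls2, not called before (FDR = 0.0651), was then called lower (log2 -0.96, FDR = 0.0262). Its means were low, at 43.7 normalised reads for wild type and 27.5 for the knockout label.

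Of 14 other death targets 3 rose and 2 fell (median 0.11), beside 14.8% of all genes in each direction. Casp1, the inflammatory caspase, rose from 34.0 ± 6.15 to 63.6 ± 14.4 (log2 0.87, FDR = 0.0157). Perp, a junction protein gene, rose from 115 ± 20.8 to 187 ± 27.7 (log2 0.71, FDR = 0.0126), and Siva1 from 486 ± 87.4 to 775 ± 201 (log2 0.65, FDR = 0.0197). Eda2r, a TNF receptor family gene, fell from 3331 ± 473 to 2313 ± 288 (log2 -0.52, FDR = 0.0116). Apaf1, the scaffold of the apoptosome, also fell, from 1366 ± 233 to 929.8 ± 275 (log2 -0.59, FDR = 0.0390). Of 8 targets of mixed role 4 rose and 0 fell (median 0.44): Dcxr, a sugar reductase gene, from 591 ± 56.9 to 1396 ± 435 (log2 1.19, FDR = 0.00246), Ak1, an adenylate kinase gene, from 2325 ± 190.0 to 3726 ± 447 (log2 0.68, FDR = 0.00282), Pltp, a lipid transfer gene, from 85.1 ± 19.4 to 134 ± 8.53 (log2 0.67, FDR = 0.0165), and Trp53i13 from 254 ± 51.8 to 375 ± 67.6 (log2 0.56, FDR = 0.0259). With the trend subtracted 3 death targets were called higher, Casp1 (log2 0.77), Perp (log2 0.55) and Aen (log2 0.34), and 1 lower, Eda2r (log2 -0.24). Dcxr (log2 0.44) and Ak1 (log2 0.39) were called there too, and Trp53i13 turned to -0.10 (FDR = 0.528). Before subtraction Aen was not called (log2 0.21, FDR = 0.113).

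**Figure D5:**
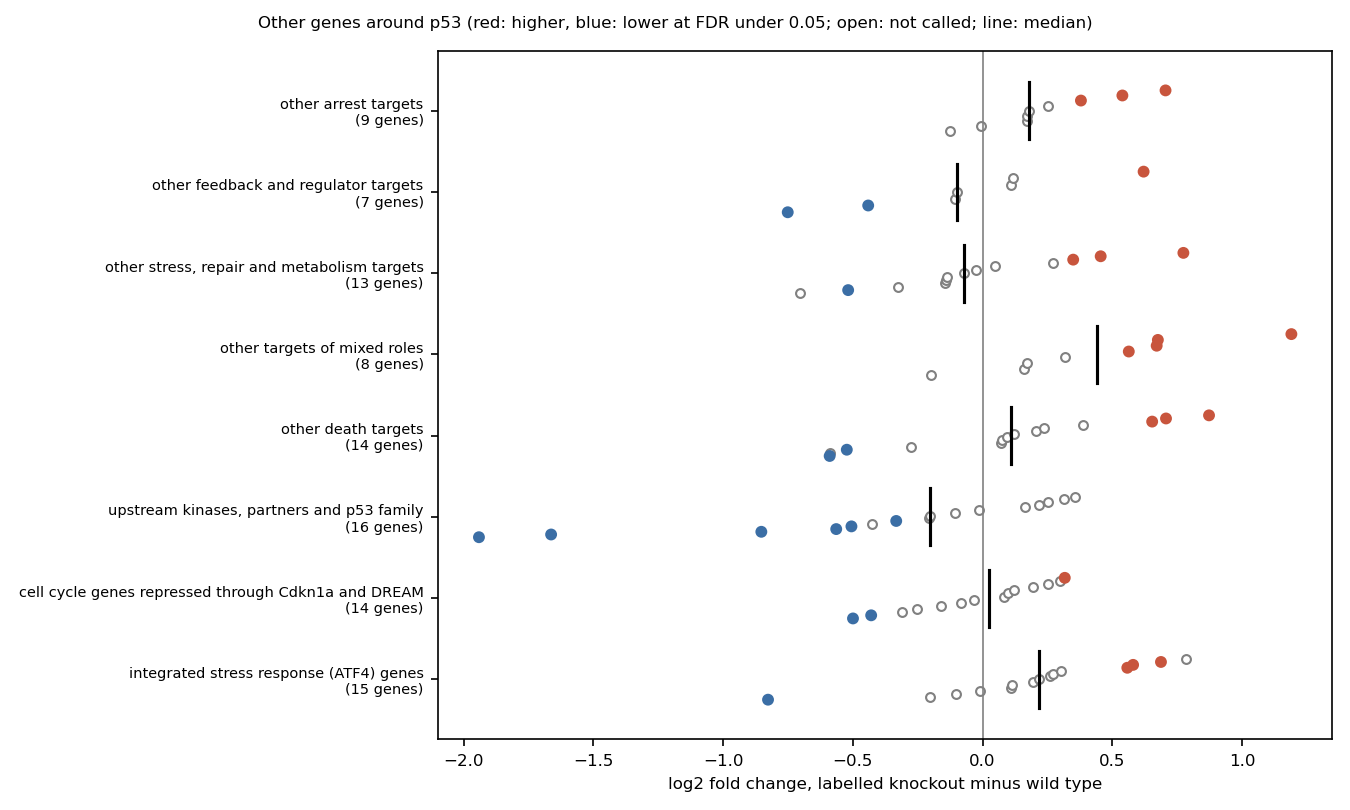
Log2 fold change (x axis, labelled knockout minus wild type) of each measured gene in 8 lists around p53, coloured by call at an FDR under 0.05, with the median of each list as a line. The upstream kinases and partners have no gene called higher and 6 called lower, while the targets of mixed roles have 4 higher and none lower. Over all genes 14.8% were called higher and 14.8% lower.

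Genes that act on p53 or answer to Cdkn1a were listed too. Of 16 upstream kinases, partners and family members 0 rose and 6 fell (median -0.20), and their median transcript was 4567 nt. Over all genes 14.8% were called higher and 14.8% lower, and in the length bin from 3992 to 4577 nt 16.6% were called lower. Hipk2, Atm, Atr and Ep300 lay in the longest bin, from 6992 nt, where 57.4% were called lower. Hipk2, a kinase that phosphorylates p53, fell from 1464 ± 431 to 487 ± 412 (log2 -1.94, FDR = 0.0146). The DNA damage kinase genes Atm and Atr fell from 1188 ± 279 to 458 ± 318 (log2 -1.66, FDR = 0.0193) and from 793 ± 200.0 to 443 ± 134 (log2 -0.85, FDR = 0.0153), and the acetyltransferase gene Ep300 from 1798 ± 213 to 1287 ± 307 (log2 -0.51, FDR = 0.0300). With the slope as a covariate, a fit that separates label and slope poorly, Hipk2, Atm, Atr and Ep300 were at 0.17, 0.19, -0.01 and 0.04. With the trend subtracted they were at -1.60 (FDR = 0.0782), -1.11 (FDR = 0.155), -0.35 (FDR = 0.103) and -0.06 (FDR = 0.684), none called. Of the 16, 2 were then called lower, Cdkn2a (log2 -0.46, FDR = 0.00446) and Kat5 (log2 -0.28, FDR = 0.0400). Neither was among the 6 that fell, and before subtraction they stood at 0.32 and -0.01. Without the 4 libraries of steepest slope Hipk2, Atm, Atr and Ep300 were at -0.59 (FDR = 0.301), -0.53 (FDR = 0.000936), -0.33 (FDR = 0.107) and -0.12 (FDR = 0.596). Of these Atm was called lower. Of 14 cell cycle genes that p21 represses through the DREAM complex 1 rose and 2 fell (median 0.02): Cdc20 rose from 3105 ± 299 to 3869.7 ± 384 (log2 0.32, FDR = 0.0408), Bub1 fell from 1551 ± 289 to 1137 ± 47.6 (log2 -0.43, FDR = 0.0271) and Prc1 fell from 3146 ± 352 to 2269 ± 546 (log2 -0.50, FDR = 0.0353). Foxm1, a mitotic transcription factor gene, was at 2809 ± 107 and 2361 ± 178 (log2 -0.25, FDR = 0.0528). With the trend subtracted Cdc20 turned to -0.04 (FDR = 0.658), and Bub1 was called lower (log2 -0.30).

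Because Sesn2 and Gdf15 also answer to the integrated stress response, 15 genes of that response were described. Of these 3 rose and 1 fell (median 0.22), where 14.8% of all genes were called higher and 14.8% lower. Ddit3, which encodes CHOP, rose from 159.8 ± 16.3 to 236 ± 28.3 (log2 0.56, FDR = 0.0133), Phgdh, the first enzyme of serine synthesis, from 4876 ± 623 to 7373 ± 1555 (log2 0.58, FDR = 0.0151), and Stc2, a secreted glycoprotein gene, from 98.0 ± 10.5 to 158 ± 12.7 (log2 0.69, FDR = 0.00781). Slc7a11, the cystine transporter gene, fell from 241 ± 29.5 to 136 ± 26.1 (log2 -0.83, FDR = 0.00642). Atf4 itself was at 2290.5 ± 289 and 2480.2 ± 308 (log2 0.11, FDR = 0.504). With the trend subtracted the median of the 15 was -0.001, and 2 were called higher, among them Stc2 (log2 0.75). Ddit3, Phgdh and Slc7a11 were not called there. The part of this response in the level of Sesn2 was not tested.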

How the data were processed

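Per the labels' protocols, RNA was extracted with TRIzol and polyadenylated RNA went into NEBNext Ultra libraries. The submitters' processing notes name STAR 2.7.1a and DESeq2 1.38.3, with mm10, after read checks by FastQC 0.12.1 and fastp 0.23.4. The sources used here do not give the read counter, its annotation or its use of strand. The signal that the authors deposited is, for each library, the read count of a gene over a size factor (0.889 to 1.07). This was checked: 100% of values were whole multiples of a library's step (tolerance 0.0001 reads). Of 15602 rows, 64 repeated another and were dropped.

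Symbols, coordinates and the longest transcript came from GENCODE M21, which annotates the assembly that mm10 names, and matched 15531 of 15538 genes. Genotype was tested by robust limma-trend (limma 3.58.1, R 4.3.3), two-sided, on log2(value + 1), with Benjamini-Hochberg adjustment over all 15538 genes. Every FDR without another tool's name is from that test, and fold changes on this scale understate changes of low genes. The test planned for raw counts, edgeR's quasi-likelihood test, was not the main one because the values were normalised; on the recovered reads edgeR 4.0.16 called 4683 of 13324 genes, and all 10 members passed its filter. The main test did not pair libraries by replicate number.

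The members and all gene lists were chosen with earlier results of these data known. The text names the 10 members, Phf23, the 4 or fewer lowest-FDR genes per role list and the 3 genes most like Trp53 and Cdkn1a, except 1 gene that is not reported here. Apaf1, Atf4, Aen, Gls2, Cdkn2a, Kat5, Trp53-ps, AC167363.2 and Gm45808 fall outside this rule and were chosen after their values or annotation were seen. Alternatives were edgeR with other scalings, DESeq2 1.42.0, a pseudocount of 0.1, a minimum mean of 10, the length settings, a replicate block and leaving out each library; a loess of degree 1 in place of 2 (span 0.3) was added after seeing the data.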

Additional observations from a re-analysis of the deposited data

How the results depend on the processing

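Sesn2 kept its call and direction in 21 of 21 alternatives, Phlda3 in 19, Cdkn1a in 18, Bax in 16, Bbc3 in 14 and Zmat3 in 10. The main test called 5 members higher. Subtracting the length and GC trend gave 2, Sesn2 and Ccng1, of which Ccng1 was not among the 5. A loess of degree 1 gave 4: Sesn2, Ccng1, Cdkn1a (FDR = 0.0487) and Phlda3 (FDR = 0.0464). Cdkn1a and Phlda3 thus lay near the threshold, and their calls depended on the loess degree. The covariate fit gave 1, Sesn2. The 1 member called lower became 0 in each of these settings and without the 4 libraries of steepest slope. Leaving out 1 library each gave 4 to 7 higher and 0 to 1 lower. With the replicate block, 2 members were called higher and 0 lower. Whether same-numbered libraries belong together is not said. Their deviations from their group means correlated at -0.33, -0.13, -0.19 and -0.28 over 13271 genes. The length slopes of libraries 1 and 2 lay above those of 3 and 4 in wild type and below them with the knockout label. These correlations therefore cannot tell whether the libraries were paired. With the block, 2 of the wider targets were higher and 0 lower, and 151 of all genes higher and 182 lower.

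Of the wider targets, 14 were higher and 5 lower. These counts became 9 and 3 with the trend subtracted and 8 and 3 with a loess of degree 1. They were 0 and 0 with the covariate, and 8 and 0 without the 4 libraries. Leaving out 1 library gave 5 to 16 and 2 to 6. All genes went from 2301 higher and 2292 lower to 102 and 68 with the covariate and 717 and 705 without the 4 libraries, and leaving out 1 library gave 948 to 2919 and 936 to 2942. The trend subtracted left 1212 lower, and a loess of degree 1 left 1223. With libraries scaled to their totals alone, 1827 genes were higher and 2757 lower.

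Directions turned for Trp53 with the covariate (-0.030), for Zmat3 with the trend subtracted (0.13; degree 1 0.12) and for Bax in the same settings (-0.17 and -0.11). Gdf15 turned to -0.20, -0.19 and -0.072 with the trend, degree 1 and the covariate. Mdm2, near 0 throughout, was at 0.027, 0.027, 0.10 and 0.13 with the trend, degree 1, the covariate and without the 4 libraries, and from -0.068 to 0.037 without 1 library each. The cause of these shifts was not tested. A minimum mean of 1 removed no gene.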

Other observations

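Within the groups, the members varied together to different degrees. Over the 8 libraries, deviations from the group means of log2 levels correlated at 0.96 between Bax and Phlda3, 0.91 between Gdf15 and Bax, 0.88 between Mdm2 and Ccng1 and 0.82 between Trp53 and Cdkn1a. They correlated at -0.99 between Ccng1 and Bbc3 and at -0.94 between Zmat3 and Bax. Of the 45 pairs of members, 23 had a positive correlation. These values describe genes that share libraries, and their transcript lengths differ: Bax, Gdf15 and Phlda3 have the shortest transcripts of the 10 and Zmat3 the longest.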
